A study of Bos taurus with 9 samples.

Results

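Lysosome and autophagy genes were followed in bovine blastocysts whose oocytes had matured in 1 of 3 media. The genes were chosen by name from the symbol column of the count table: all V-ATPase genes (ATP6V), cathepsins (CTS and a single letter), ATG genes and LAMP genes, with BECN1, ULK1, ULK2, SQSTM1, MAP1LC3A, MAP1LC3B, GABARAP, GABARAPL1, GABARAPL2, WIPI1, WIPI2, TFEB and TFE3. This rule used no measured value, but the genes were chosen with earlier results of these data known. It found 71 of the 22127 genes in the table, and 67 of them were among the 16469 genes with enough counts to be tested.

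The series asks whether the medium of the maturing oocyte leaves a mark on the embryo's transcripts. Cumulus-oocyte complexes were matured for a day in control medium with 5.5 mM glucose, in low glucose medium with 2.75 mM, or in low glucose medium with 2.75 mM glucose and 1.8 mM BHB, an abbreviation that the labels do not spell out. Fertilisation in vitro and culture to day 8 were the same for all, and serum, pyruvate, FSH and estradiol were part of every maturation medium. Each medium has 3 libraries of polyadenylated RNA, each from a pool of 9 to 11 embryos. Strain, sex and parentage of the embryos are not given in the labels, and no label states that the replicates are separate cultures. The p-values therefore cover the spread among these pools alone, and that spread may be technical.

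Lysosomes are acidic organelles that break down proteins, lipids and sugars delivered by endocytosis or by autophagy, in which a membrane sac closes around cytoplasm and fuses with the lysosome. The V-ATPase pumps protons into the lumen, cathepsins digest proteins there, and LAMP proteins line the membrane. Autophagy is started by the ULK1 kinase complex when nutrients are short, and the transcription factors TFEB and TFE3 raise many lysosomal genes when the nutrient-sensing kinase complex mTORC1 is inactive. In mouse embryos autophagy is switched on soon after fertilisation and helps to clear proteins inherited from the oocyte.

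Total estimated counts ran from 55611205 to 75178898 per library, of which these 71 genes took 0.905% to 1.03%. Log2 values of all tested genes correlated at 0.951 to 0.976 between libraries of 1 medium. The label of the tissue was matched by its markers: the trophectoderm list (8 genes) summed to 13100 to 19800 CPM (counts relative to library size, scaled by TMM factors) and the epiblast list to 1090 to 1330 CPM, while SOX2 is not among the table's symbols. All 8 trophectoderm estimates were positive in both low glucose media, with medians of 0.112 and 0.17 and no call. Of all 16469 tested genes, 8765 and 8488 had positive estimates there. The hypoblast list (6 genes) summed to 713 to 1030 CPM. Its GATA4 fell in both low glucose media (-1.45, edgeR adjusted p = 0.00802, and -1.13, edgeR adjusted p = 0.0432) and was the 1 call of the list. In low glucose 5 of the 6 genes had positive log2 fold changes, and with BHB 4 were positive and 2 negative. The list medians were 0.209 and 0.293. The part of GATA4 in the results on lysosome and autophagy genes was not tested. The list of cumulus and granulosa cell markers had a higher sum in control libraries, at 216 to 336 CPM, than in low glucose libraries, at 46.0 to 94.9 CPM, or those with BHB, at 56.3 to 56.5 CPM. Of its 11 genes 4 were called in each low glucose medium, while the defining genes FSHR and CYP19A1 overlapped between media.

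CTSK, a collagen-digesting cathepsin, had the largest difference from control of all 67 tested genes in either low glucose medium, 2.89-fold and 3.43-fold lower, and passed the threshold in neither. GABARAPL1, an autophagy membrane protein, was lower in all 6 low glucose libraries than in any control library, and CTSA, a carboxypeptidase, was higher in all 6, without passing the test. Of the 67 members 2 lay below control in this way (CTSK and GABARAPL1) and 1 above, against 916 and 170 of all 16469 tested genes. By the quasi-likelihood test of edgeR, no member passed an adjusted p of 0.05 in low glucose against control, where 2.03% of all tested genes did, and none passed with BHB against control, where 1.38% did. Between the low glucose media 0 members and 0.0% of all genes passed. At an unadjusted p under 0.05 there were 4 members in low glucose, against 7.33% of all genes, and these were CTSK, GABARAPL1, ATG13 and ATP6V0E2, all lower. With BHB there were also 4, against 7.32% of all genes: CTSK and GABARAPL1 lower, CTSA and ULK2 higher. ULK2 was the single such member between the low glucose media, where 1.64% of genes reached that level. DESeq2 put CTSK past the threshold against control in both low glucose media and limma-voom only with BHB, and neither tool called another member.

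For 47 of the 67 members (70.1%) the 95% interval of the fold change in low glucose lay within 1.5-fold of control in both directions, against 41.9% of all tested genes. For BHB the count was also 47 (70.1%), against 40.3% of all genes, and between the low glucose media it was 49 (73.1%), against 44.2%. The width of an interval follows the standard error, whose median was 0.146 over the members and 0.234 over all tested genes in each of these comparisons. The intervals are those of single genes and are not adjusted for their number. The median log2 fold change of the members was 0.048 in low glucose and 0.00065 with BHB against control, and -0.0045 between the low glucose media, where the medians of all tested genes were 0.018, 0.0096 and 0.0054. The median coefficient of variation within media was 11.2% over the members and 18% over all tested genes, a description without a test. ATP6V0A4 had the smallest, 2.86%, and WIPI1 the largest, 59.5%. Both comparisons with control use the same 3 control libraries, so their values for a gene are not independent.

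**Figure D1:**
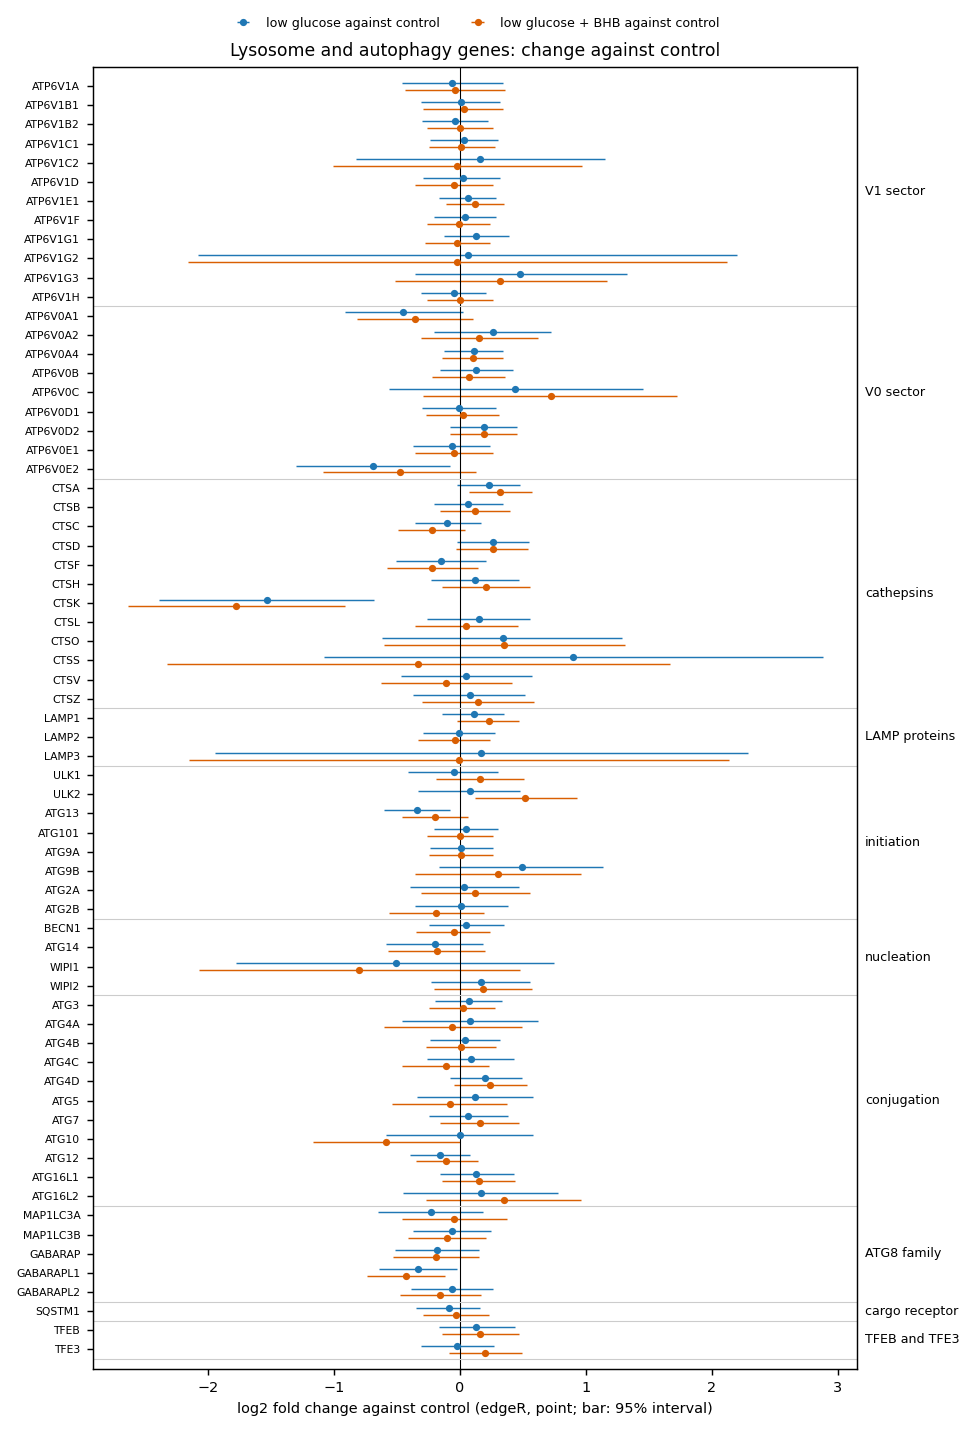
Log2 fold changes against control (x axis) of the 67 tested lysosome and autophagy genes (y axis, grouped by role), for low glucose (blue) and low glucose with BHB (orange). Points are edgeR estimates and bars are 95% intervals; CTSK lies at -1.53 and -1.78 with intervals that end below 0, while wide bars such as those of ATP6V1G2, CTSS and LAMP3 belong to genes with few counts.

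Of the V-ATPase, the V1 sector binds and splits ATP. Its 12 tested genes had log2 fold changes from -0.06 to 0.48 in low glucose and from -0.05 to 0.32 with BHB, and none reached an unadjusted p of 0.05. ATP6V1H, the subunit that stops ATP splitting when V1 comes off the membrane, stood at 136, 143 and 136 CPM in the control libraries, 142, 130 and 128 CPM in low glucose and 130, 123 and 161 CPM with BHB. Its groups overlapped throughout, with a log2 fold change of -0.05 (95% interval -0.31 to 0.21) in low glucose and an interval of -0.26 to 0.26 with BHB. ATP6V1G1, a stalk subunit, had the smallest p of the sector. It was measured at 127, 160 and 145 CPM in the control libraries, 175, 149 and 148 CPM in low glucose and 138, 138 and 149 CPM with BHB. Of the isoforms known from particular tissues, ATP6V1B1 had 3971 to 5442 counts per library and a median coefficient of variation of 7.25%. ATP6V1G3 ran from 2.07 to 7.09 CPM, ATP6V1C2 from 6.31 to 22.5 CPM, and ATP6V1G2 from 1 count to 41 counts per library. ATP6V1C2 was spread within every medium, from 7.25 to 19.9 CPM in control alone.

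The V0 sector is the membrane ring through which protons pass, and its a subunit decides to which membrane the pump goes. Of its 9 tested genes, ATP6V0E2, a small isoform of subunit e, had the smallest p. It stood at 4.79, 5.74 and 5.26 CPM in the control libraries, 2.53, 3.94 and 3.32 CPM in low glucose and 3.77, 4.83 and 2.71 CPM with BHB. Low glucose libraries were all below the control libraries, while the BHB libraries reached into the control range. On the log2 scale it differed by -0.69 (SE 0.282, edgeR adjusted p = 0.524) in low glucose and -0.48 (SE 0.281, edgeR adjusted p = 0.855) with BHB. ATP6V0A1, an isoform of subunit a found in many tissues, was picked once its values were known. It read 28.5, 29.4 and 29.8 CPM in the control libraries, 21.4, 18.7 and 24.2 CPM in low glucose, and 24.3, 14.8 and 29.2 CPM with BHB. Control was narrow and above all low glucose libraries, while BHB replicate 3 lay within the control range. The log2 differences were -0.45 (SE 0.213, edgeR adjusted p = 0.726) in low glucose and -0.36 (SE 0.212, edgeR adjusted p = 0.855) with BHB.

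ATP6V0A4, the isoform of subunit a known from acid-secreting kidney cells, had estimates of the opposite sign and stood at 301, 287 and 291 CPM in the control libraries, 350, 320 and 276 CPM in low glucose and 320, 304 and 318 CPM with BHB. A ratio of isoforms within a library does not depend on gene length when it is compared between media. The log2 ratio of ATP6V0A1 to ATP6V0A4 was -3.40, -3.28 and -3.29 in control, -4.03, -4.10 and -3.51 in low glucose and -3.72, -4.36 and -3.44 with BHB. All 6 low glucose libraries lay below the 3 control libraries. The difference was -0.55 in low glucose and -0.52 with BHB, each with a two-sided exact permutation p of 0.1, the smallest that 3 libraries against 3 allow. Over the 21 tests of 7 isoform pairs in 3 comparisons the Benjamini-Hochberg adjusted p of both exact permutation tests was 0.7. ATP6V0E2 to ATP6V0E1 also separated control from low glucose, at a difference of -0.63, and no other pair separated 2 media. These ratios were added after the data were seen.

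**Figure D2:**
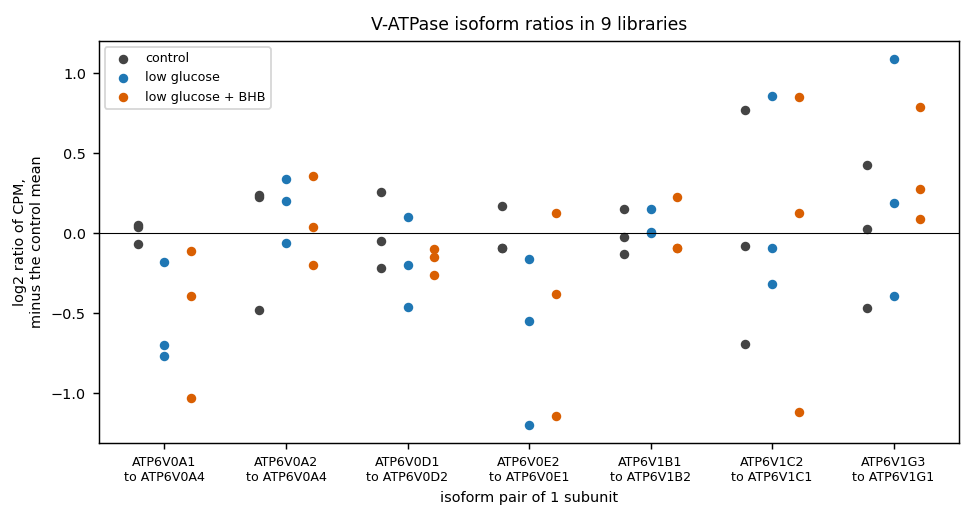
Log2 ratio of 7 pairs of V-ATPase isoforms (x axis) in each of 9 libraries, shown as the difference from the control mean (y axis, log2 units). Each point is 1 library, coloured by medium; for ATP6V0A1 to ATP6V0A4 every low glucose point lies below the 3 control points, while the pairs of subunits d, B, C and G overlap.

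The other V0 genes gave no call. ATP6V0D2, an isoform of subunit d, was at 263, 236 and 237 CPM in control and 268, 275 and 296 CPM with BHB, without overlap, a log2 difference of 0.19 (SE 0.121, edgeR adjusted p = 0.887). ATP6V0C, the proteolipid that forms most of the ring, had just 94 to 429 counts per library, and its highest log2 fold change of the sector with BHB, 0.72, had an interval from -0.29 to 1.72.

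Cathepsins are the digestive enzymes of the lysosome, and 12 of 13 were tested. CTSK (ENSBTAG00000021035) cleaves fibrillar collagen and is best known from bone-resorbing osteoclasts and from fibroblasts. It was measured at 11.6, 6.26 and 7.73 CPM in the control libraries, 3.27, 3.79 and 1.76 CPM in low glucose and 1.38, 3.56 and 2.49 CPM with BHB, from 84 to 688 counts per library. Every control library was above every low glucose library of either kind, and control replicate 1 was the highest. The control mean was 8.52 ± 2.74 CPM (SD, n = 3), against 2.94 ± 1.05 CPM (SD, n = 3) for low glucose and 2.48 ± 1.09 CPM (SD, n = 3) once BHB was added.

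CTSK was thus 2.89-fold lower in low glucose, with a log2 fold change of -1.53 (95% interval -2.39 to -0.68, edgeR adjusted p = 0.0831), and 3.43-fold lower with BHB, at -1.78 (-2.64 to -0.91, edgeR adjusted p = 0.0518). Neither passed the threshold. Between the low glucose media the difference was -0.25 (-1.09 to 0.60). Under the other settings the adjusted p ran from 0.00442 to 0.370 in low glucose and from 0.000542 to 0.544 with BHB, with the sign the same in all of them. With the replicate number as a block the BHB value passed, at -1.81 (edgeR adjusted p = 0.0495). Setting all 6 libraries of the low glucose media against control, a comparison chosen with the data in view and made from the same libraries, gave -1.65 (-2.35 to -0.96, edgeR adjusted p = 0.0126), where 2.87% of all tested genes passed and CTSK was the 1 member that fell. That call was lost without control replicate 1 (-1.37, edgeR adjusted p = 0.109) and without replicate 1 of every medium (-1.27, edgeR adjusted p = 0.150).

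Markers of stromal cells were lower in the same libraries. The fibroblast list of 5 genes, all tested, had 1 call in low glucose (PDGFRB, -2.22, edgeR adjusted p = 0.00461), where 2.03% of all tested genes passed. It had 2 with BHB (PDGFRB, -2.26, and COL3A1, -2.21), where 1.38% passed. With both low glucose media together 4 of its 5 genes passed, all lower, against 2.87% of all genes. Its summed level ran from 311 to 703 CPM in control, 143 to 245 CPM in low glucose and 113 to 282 CPM with BHB, and no member was at 0 in any medium. Of the 11 cumulus and granulosa markers 4 fell in each low glucose medium (LUM, DCN, VCAN and NR5A2), and 4 with both media together, against the same shares of all genes. The defining genes FSHR and CYP19A1 overlapped between media, at 3.55 to 4.61 CPM and 17.1 to 28.6 CPM in control, against 3.32 to 5.67 CPM and 18.4 to 27.9 CPM elsewhere. INHA was at 0 in all 3 low glucose libraries without BHB and in control replicate 2. Control replicate 1, the highest in CTSK, was also the highest in both summed lists, while BHB replicate 1, the lowest in CTSK at 1.38 CPM, had the highest fibroblast sum outside control. The part of these cells in the CTSK difference was not tested, and in pooled embryos fewer cells of a type and less RNA per cell cannot be told apart. Leukocyte markers (10 listed, 8 tested) had no call and summed to 10.7 to 12.0 CPM in control, 6.71 to 16.7 CPM in low glucose and 6.87 to 13.2 CPM with BHB. Of these, PTPRC, the pan-leukocyte marker, was at 0.0153 to 0.0909 CPM, and ITGAM was at 0 in 6 of the 9 libraries, among them control replicate 1 and BHB replicates 1 and 2. These 2 low genes do not stand for the list, of whose 10 genes 0 were at 0 in all libraries. Its 8 tested genes had log2 estimates from -0.67 to 0.53 in low glucose (5 negative, 3 positive). With BHB they ran from -0.91 to 0.55 (4 negative, 4 positive). Of the osteoclast list, which holds CTSK itself, ACP5 was 0.31 (SE 0.117, edgeR adjusted p = 0.427) and 0.48 (SE 0.117, edgeR adjusted p = 0.0794) above control on the log2 scale, opposite in sign to CTSK. The other genes of that list, OSCAR and DCSTAMP, were at 0.0 to 0.237 CPM and 0.127 to 0.464 CPM over all libraries and gave no call, with log2 estimates in low glucose of -3.23 (SE 1.86) and 0.87 (SE 0.791) and with BHB of -0.30 (SE 1.59) and -0.04 (SE 0.794).

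**Figure D3:**
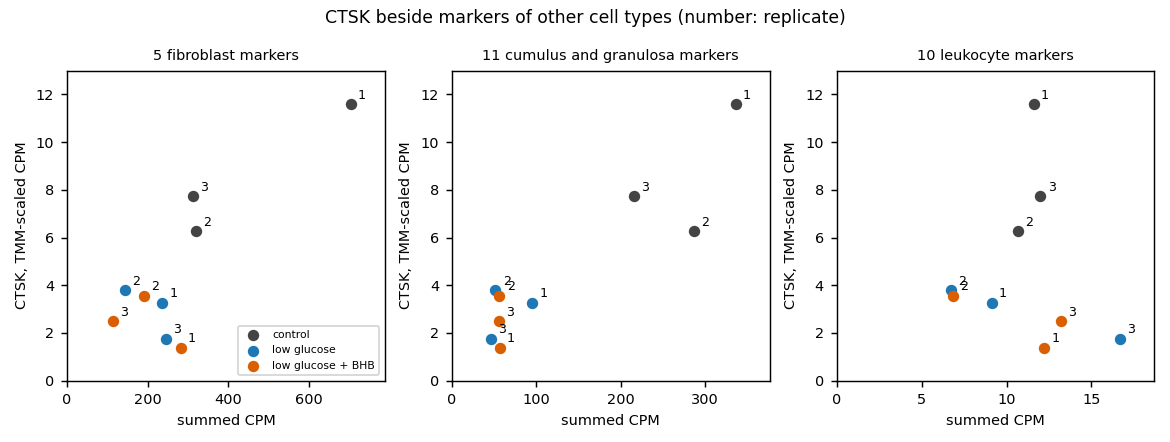
CTSK level (y axis, TMM-scaled CPM) against the summed CPM of 3 marker lists (x axes) in 9 libraries, coloured by medium and numbered by replicate. Control libraries are highest in CTSK (6.26 to 11.6 CPM) and in the fibroblast and cumulus sums, while the leukocyte sums overlap between media. FSHR and CYP19A1 of the cumulus list, not shown singly, overlap between media.

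The other 11 tested cathepsins gave no call. CTSD, the main aspartic protease of the lysosome, stood at 1310, 1330 and 1470 CPM in the control libraries, 1450, 1680 and 1800 CPM in low glucose and 1490, 1950 and 1470 CPM with BHB. It was higher on average in both low glucose media, by 0.26 on the log2 scale in each (SE 0.131, edgeR adjusted p = 0.776 and 0.766), with intervals from -0.02 to 0.55 and from -0.03 to 0.54. CTSA, a carboxypeptidase that also protects other lysosomal enzymes and is outside the rule for named genes, read 380, 378 and 368 CPM in the control libraries, 462, 415 and 445 CPM in low glucose and 516, 495 and 395 CPM with BHB. All 6 low glucose libraries exceeded the controls, by 0.23 (SE 0.116, edgeR adjusted p = 0.779) and 0.32 (SE 0.116, edgeR adjusted p = 0.413) on the log2 scale. CTSB, a cysteine protease, overlapped between media, at 404, 417 and 407 CPM in the control libraries, 476, 438 and 368 CPM in low glucose and 499, 455 and 381 CPM with BHB. CTSL, another cysteine protease, did so too, at 235, 271 and 208 CPM, 336, 267 and 191 CPM, and 284, 239 and 216 CPM in the same order. Its close relative CTSV, with which it may share reads, was highest in replicate 1 of each medium, at 1380, 1650 and 1420 CPM, against 814 to 1050 CPM in the other 6 libraries. CTSS, an antigen-processing cathepsin, had 3 to 42 counts per library, and its log2 differences of 0.90 and -0.33 against control had intervals of -1.08 to 2.88 and of -2.33 to 1.67. Against low glucose the BHB libraries were lower in CTSS without overlap, at 0.295, 0.0405 and 0.273 CPM against 0.641, 0.408 and 0.373 CPM, a log2 difference of -1.23 (95% interval -3.23 to 0.78, edgeR adjusted p = 1.0).

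The LAMP glycoproteins of the lysosomal membrane overlapped between media. LAMP1 was at 370, 389 and 435 CPM in the control libraries, 424, 432 and 430 CPM in low glucose and 467, 518 and 412 CPM with BHB. LAMP2, which also serves chaperone-mediated autophagy, was at 574, 690 and 578 CPM, 709, 554 and 572 CPM, and 532, 603 and 654 CPM. The estimates were small, with log2 fold changes of 0.11 and -0.01 in low glucose and 0.23 and -0.04 with BHB. The 4 members put aside by the filter were CTSW with 15 counts over all 9 libraries, LAMP5 with 5, ATP6V1E2 with 16 and ATP6V1FNB with 59. ATP6V1FNB is matched by its name alone: it is the neighbour of ATP6V1F in the RefSeq gene table and is not a pump subunit.

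None of the 8 genes that start autophagy passed after adjustment. ATG13, the regulatory subunit of the ULK1 complex, was picked once its values were known. It stood at 54.2, 43.8 and 48.5 CPM in the control libraries, 38.0, 37.9 and 40.3 CPM in low glucose and 45.1, 40.6 and 42.0 CPM with BHB. Low glucose libraries lay below all others, and differed from control by -0.34 on the log2 scale (SE 0.119, edgeR adjusted p = 0.344). ULK2, the related kinase, was at 16.7, 13.4 and 13 CPM in the control libraries, 12.8, 16.1 and 16.5 CPM in low glucose and 25.2, 18.4 and 18.2 CPM with BHB. The BHB libraries were above all others, at 0.52 (SE 0.186, edgeR adjusted p = 0.392) against control and 0.45 (SE 0.186, edgeR adjusted p = 1.0) against low glucose. ULK1 itself overlapped, at 57.3, 61.8 and 70.8 CPM in the control libraries, 47.7, 64.1 and 71.1 CPM in low glucose and 65.7, 64.2 and 82.3 CPM with BHB. ATG101, a further subunit, and ATG9A, the membrane protein that seeds the sac, had log2 fold changes of 0.05 and 0.01 in low glucose, and ATG9A of 0.01 with BHB.

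For the steps that follow, BECN1, the scaffold of the lipid kinase complex, stood at 37.2, 28.9 and 32.0 CPM in the control libraries, 34.8, 34.6 and 32.0 CPM in low glucose and 34.7, 29.1 and 30.7 CPM with BHB. WIPI1, which reads the lipid made by that complex, had the smallest p of this group and a wide spread, at 3.53, 2.22 and 1.65 CPM, 0.733, 1.66 and 2.78 CPM, and 0.509, 2.40 and 1.33 CPM. Its values overlapped between all media, and the log2 fold change of -0.80 with BHB had an interval from -2.07 to 0.48. The conjugation group holds ATG12, the enzymes and partners that join it and the ATG8 proteins to their targets, and the ATG4 proteases, which trim and release ATG8 proteins. Its 11 genes were all tested, with log2 fold changes from -0.16 to 0.20 in low glucose and from -0.59 to 0.35 with BHB. ATG10, the E2-like enzyme that joins ATG12 to ATG5, had the smallest p. It was at 4.79, 3.39 and 3.36 CPM in the control libraries, 4.31, 3.48 and 3.73 CPM in low glucose and 2.18, 2.52 and 2.98 CPM with BHB. The BHB libraries were below all 6 others, at -0.59 (SE 0.271, edgeR adjusted p = 0.692) against control and -0.58 (SE 0.271, edgeR adjusted p = 1.0) against low glucose.

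The ATG8 proteins are attached to the autophagy membrane and bind cargo receptors. All 5 in the gene set had negative estimates in both comparisons with control, from -0.33 to -0.06 in low glucose and from -0.43 to -0.05 with BHB. Of all 16469 tested genes, 7704 and 7981 had negative estimates there. Only GABARAPL1 of the 5 reached an unadjusted p of 0.05 by the edgeR test. MAP1LC3C, a further form outside the rule for members, was at -1.66 (edgeR adjusted p = 0.255) and -2.02 (edgeR adjusted p = 0.149). GABARAPL1 (ENSBTAG00000011765), the member with the largest difference, stood at 114, 106 and 116 CPM in the control libraries, 86.8, 83.1 and 98.5 CPM in low glucose and 80.3, 68.8 and 102 CPM with BHB. Control libraries were above all 6 others. The log2 fold change was -0.33 (95% interval -0.64 to -0.02, edgeR adjusted p = 0.603) in low glucose and -0.43 (-0.74 to -0.12, edgeR adjusted p = 0.321) with BHB. GABARAP ran at 40.5, 35.1 and 39.0 CPM in the control libraries, 41.2, 32.1 and 27.6 CPM in low glucose and 33.6, 30.8 and 36.2 CPM with BHB. MAP1LC3A, a form of LC3, was at 33.5, 35.7 and 34.7 CPM, 27.5, 25.4 and 35.5 CPM, and 43.5, 25.5 and 31.8 CPM. Both overlapped between media. MAP1LC3B, the form most used to follow autophagy, was at 79.3, 71.4 and 65.1 CPM, 78.0, 61.2 and 67.6 CPM, and 73.1, 55.9 and 72.7 CPM. GABARAPL2 was at 83.2, 75.2 and 74.0 CPM, 85.9, 67.9 and 68.7 CPM, and 80.9, 55.7 and 71.7 CPM. In these 2 genes replicate 1 was the highest of each medium and BHB replicate 2 the lowest of all libraries.

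SQSTM1, the cargo receptor p62 that is itself degraded by autophagy, stood at 313, 382 and 388 CPM in the control libraries, 327, 333 and 354 CPM in low glucose and 323, 341 and 394 CPM with BHB. Groups overlapped, and the log2 fold changes were -0.09 (95% interval -0.35 to 0.16) and -0.03 (-0.29 to 0.23). TFEB was at 61.8, 68.5 and 75.5 CPM in the control libraries, 76.8, 65.1 and 83.5 CPM in low glucose and 87.8, 66.4 and 76.4 CPM with BHB. TFE3 was at 89.5, 94.1 and 90.8 CPM, 76.9, 85.4 and 109 CPM, and 113, 99.4 and 103 CPM. TFE3 with BHB did not overlap with control, at 0.20 (SE 0.133, edgeR adjusted p = 0.897), and TFEB overlapped in both comparisons. Both factors act mainly through their place in the cell, which transcript levels do not show.

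**Figure D4:**
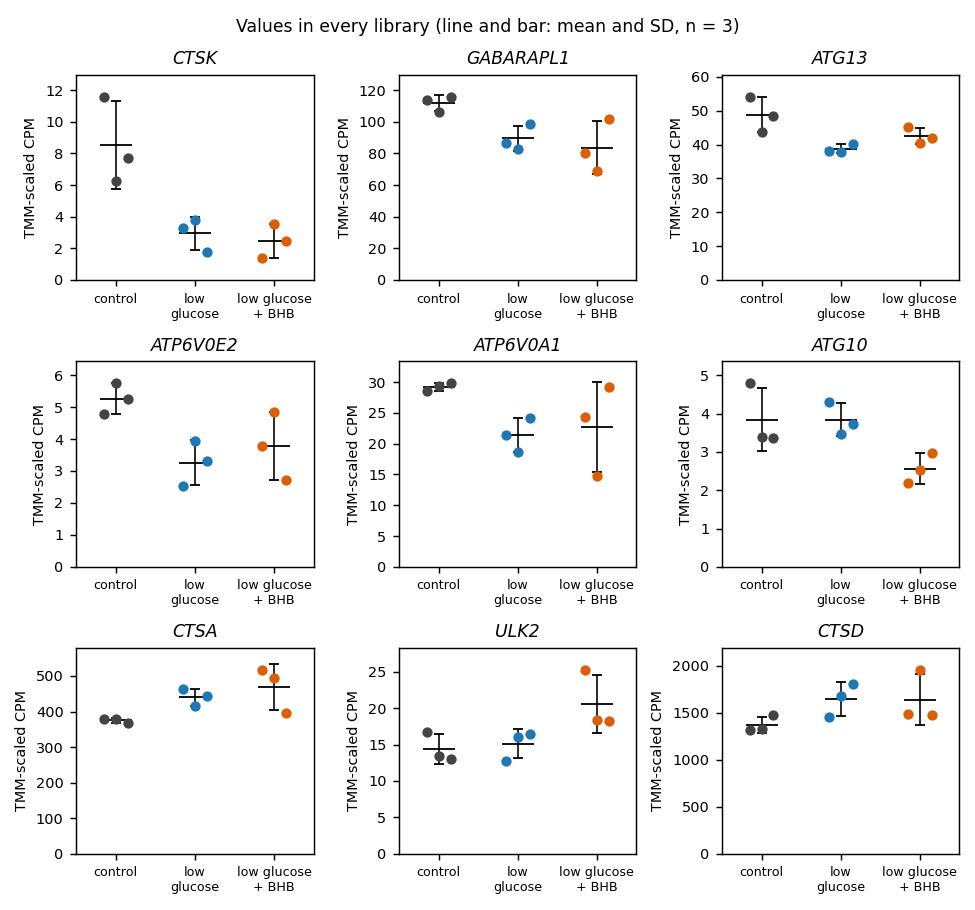
TMM-scaled CPM (y axes, from 0) of 9 genes in the 3 libraries of each medium (x axes). Points are libraries, and lines with bars are the mean and SD (n = 3); CTSK and GABARAPL1 are highest in control, CTSA lowest in control, and ULK2 and ATG10 stand apart with BHB.

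Counting all 67 tested members, the libraries of low glucose lay wholly below control in 6, against 8.85% of all genes, and wholly above in 2, against 4.31%. The 6 were CTSK, GABARAPL1, ATG13, ATP6V0E2, ATP6V0A1 and ATG12, and the 2 were CTSA and ATG9B. With BHB 4 lay below, against 8.56% of all genes, and 7 above, against 4.77%. The 4 were CTSK, GABARAPL1, ATG10 and CTSC, and the 7 were CTSA, CTSD, ULK2, TFE3, ATG4D, ATP6V0A4 and ATP6V0D2. Between the low glucose media 3 were lower with BHB, against 2.54%, and 2 higher, against 2.96%. CTSS, ATG10 and ATG4C were the lower ones, and ATG13 and ULK2 the higher ones. Replicate 1 was the highest library of every medium in 7 members, against 7.61% of all genes (ATP6V0A4, BECN1, CTSA, CTSS, CTSV, GABARAPL2 and MAP1LC3B), and the lowest of every medium in 4, against 8.0%, namely ATG4B, ATG7, ATP6V0B and SQSTM1.

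**Figure D5:**
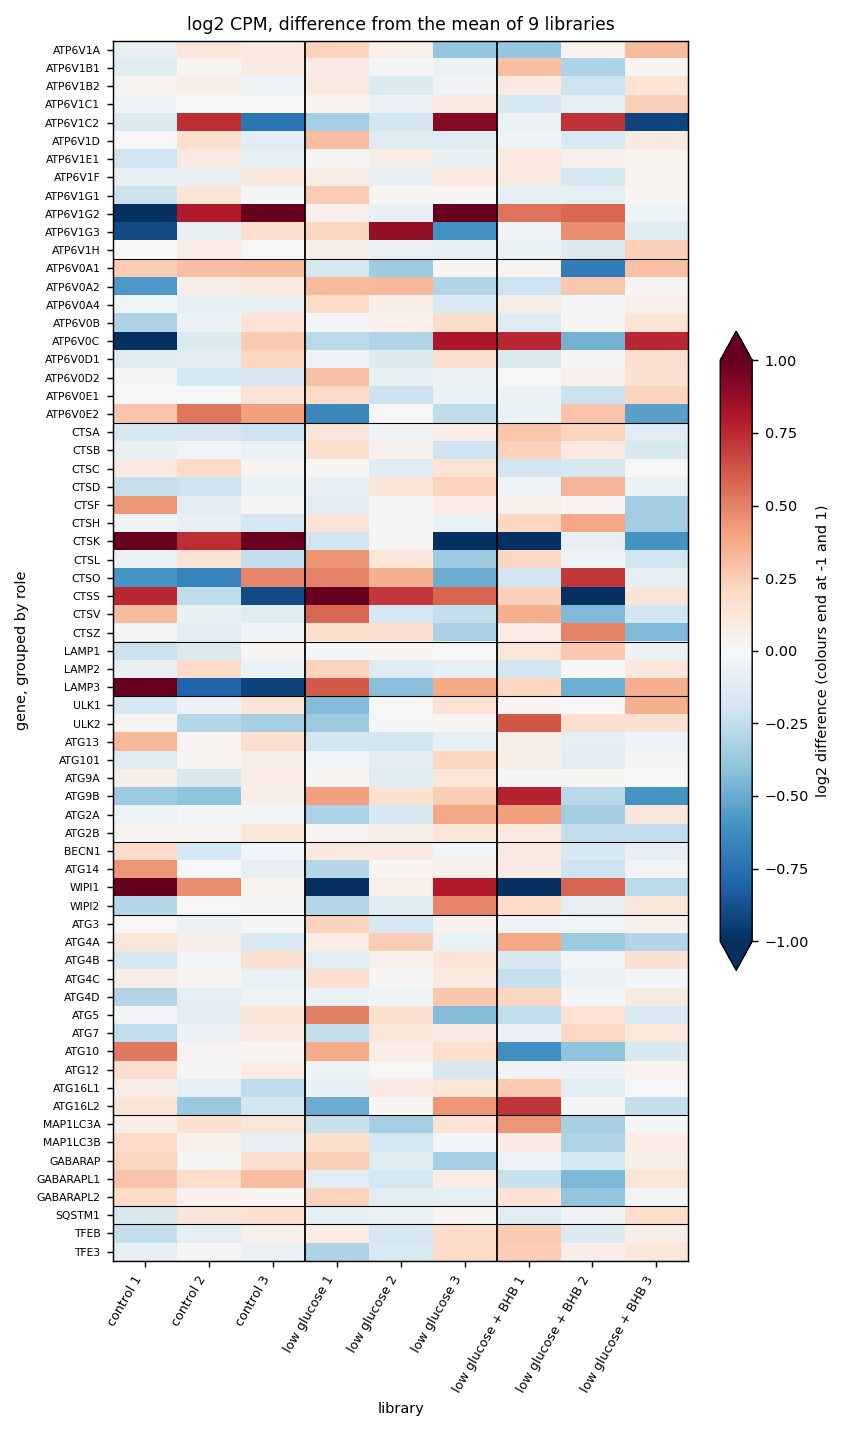
Log2 CPM of the 67 tested genes (y axis, grouped by role) in 9 libraries (x axis), as the difference from the gene's mean over all libraries; red is higher, blue lower, and colours end at -1 and 1. CTSK separates control from the other media, while ATP6V1C2, ATP6V0C, WIPI1 and LAMP3 vary between replicates of 1 medium.

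Further genes of these pathways gave few calls. By edgeR, of 56 other lysosomal hydrolases, membrane proteins and sorting receptors, 2 fell in low glucose, which is 3.57% against 2.03% of all genes, and 0 passed with BHB, where 1.38% of all genes did. The list medians were -0.01 and 0.01. DESeq2 called 4 in low glucose, all lower (LIPA, SORT1, IDUA and IDS), and 3 with BHB, of which LIPA and IDUA were lower and ACP5 higher. The limma-voom calls were those of edgeR. LIPA, the acid lipase that frees cholesterol and fatty acids in the lysosome, fell from 14.2, 14.4 and 13.1 CPM in control to 7.82, 6.78 and 6.45 CPM in low glucose, and was at 7.60, 9.61 and 8.20 CPM with BHB. Both low glucose media were below control without overlap, at -0.98 (SE 0.177, edgeR adjusted p = 0.0109) and -0.71 (SE 0.176, edgeR adjusted p = 0.0882). SORT1, the sorting receptor sortilin, fell from 9.90, 6.29 and 7.36 CPM to 3.42, 3.60 and 2.31 CPM in low glucose (-1.33, SE 0.262, edgeR adjusted p = 0.0192), and was at 4.07, 4.62 and 4.20 CPM with BHB (-0.87, SE 0.259, edgeR adjusted p = 0.213). Between the low glucose media the log2 differences were 0.27 (SE 0.176, edgeR adjusted p = 1.0) for LIPA and 0.46 (SE 0.260, edgeR adjusted p = 1.0) for SORT1. At an unadjusted p under 0.05 the list had 7 genes in low glucose (5 lower, 2 higher), which is 12.5% against 7.33% of all tested genes, and 10 with BHB (6 lower, 4 higher), which is 17.9% against 7.32%.

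LIPA lost its call without control replicate 2 (-0.96, edgeR adjusted p = 0.0507), low glucose replicate 2 (-0.95, 0.0668) or low glucose replicate 3 (-0.93, 0.0519), and without replicate 1 of every medium (0.0542). The SORT1 call was lost without control replicate 1 (-1.13, edgeR adjusted p = 0.0910) or 3 (-1.36, 0.0658) and without low glucose replicate 1 (-1.39, 0.0571), 2 (-1.44, 0.0520) or 3 (-1.16, 0.0748), and without replicate 1 of every medium (-1.20, 0.160). Of 43 other autophagy genes tested, 0 passed by edgeR or limma-voom in each comparison with control, with medians of -0.02 and 0.04, while DESeq2 called MAP1LC3C with BHB (-2.02, DESeq2 adjusted p = 0.0141). Of 37 genes of mTORC1 and of the control of TFEB, 0 passed by any of these tools, with medians of 0.04 and 0.00. At an unadjusted p under 0.05 there were 1 autophagy gene (2.33%) and 3 mTORC1 genes (8.11%) in low glucose, against 7.33% of all genes. For BHB there were 2 autophagy genes (4.65%) and 0 mTORC1 genes, against 7.32%. With both low glucose media together, 3 of the 56 genes passed (5.36%) and 1 of the 43 autophagy genes (2.33%), against 2.87% of all genes. IDUA, a hydrolase of glycosaminoglycans, and MAP1LC3C, a further LC3 form, fell by -1.52 (SE 0.297, edgeR adjusted p = 0.0134) and -1.84 (SE 0.445, edgeR adjusted p = 0.0479). SORT1 was at -1.10 (SE 0.216, edgeR adjusted p = 0.0136). The IDUA call was lost without control replicate 1 or 3. That of SORT1 was lost without control replicate 1 (-0.90, 0.112) or 3 (-1.13, 0.0618) and without replicate 1 of every medium (-0.92, 0.191). The MAP1LC3C call was lost when any single control library, low glucose replicate 1 or BHB replicate 1 or 3 was left out. It was also lost without replicate 1 of every medium (-1.92, 0.296). In the same comparison LIPA, at -0.85 (edgeR adjusted p = 0.0062), kept its call in all 9 fits that left out 1 library. It lost the call without replicate 1 of every medium (-0.84, 0.0533). MAP1LC3C was at 3.33, 2.84 and 4.92 CPM in the control libraries, 1.31, 1.82 and 0.356 CPM in low glucose and 0.820, 1.38 and 0.527 CPM with BHB.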

How the data were processed

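RNA sequencing measured transcripts in 9 libraries, 3 per medium. The values the authors deposited are estimated counts for each gene and often not whole: 19.2% of values lay over 1e-06 from a whole number. Per the submitters' processing notes, the tools included kallisto, fastp and DESeq2, and bosTau9 was the build. Their versions, their roles and the annotation are not given in the sources read here. Where kallisto made the counts, it shares reads among similar transcripts by estimation, so values of near copies are uncertain. Sample titles gave the groups, and descriptions matched the columns to samples. The RefSeq gene table is of another assembly, ARS-UCD2.0, held all 71 symbols, and gave the neighbour of ATP6V1F only; no coordinates or sequences are given.

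Counts were rounded and filtered with filterByExpr (minimum count 10, minimum total 15). All 9 libraries were fitted in edgeR 4.0.16 (R 4.3.3) with TMM factors, 3 group means and the quasi-likelihood test, two-sided, with Benjamini-Hochberg adjustment over 16469 genes. Standard errors come from the fold change and its F statistic, and intervals are at 95%. The common biological coefficient of variation was 0.322. CPM are TMM-scaled; they are not divided by gene length, so levels are not compared between genes. Replicates were no closer than 38.1 in chi-square per degree of freedom, far over sampling noise. On simulated data the test recovered 52%, 60% and 62% of the genes made 2-fold different, and 90%, 78% and 87% of those made 4-fold different. These values are in turn for the low glucose and the BHB comparison with control and for that between the low glucose media, over 16116, 16088 and 16135 genes. Of the calls 5.96%, 7.38% and 5.1% were false. The changed genes were drawn from all genes with a mean count of at least 50, so the rates are not those of the members. The median standard error was 0.146 over the members and 0.234 over all tested genes in these comparisons. The rates also do not cover members with fewer counts, such as CTSS, LAMP3 and ATP6V1G2.

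Same-numbered libraries of the low glucose media deviated together (correlations 0.115, 0.243 and 0.102), a pairing by the data and not by the labels. Against control they did not all exceed 0.1. Alternatives were RLE factors, no filter, a mean count of at least 50, a replicate block, fits of 6 libraries, DESeq2 1.42.0, limma-voom (limma 3.58.1), leaving out each library and leaving out replicate 1 of every medium. The members and lists were chosen with earlier results of these data known. Per-library values are given for members that passed, that separated 2 groups with a log2 fold change of at least 1, that had the smallest p of their role, or that were on a fixed list of 16. Other members with values (ATP6V0A1, ATP6V0A4, ATP6V0C, ATP6V0D2, ATP6V1B1, ATP6V1C2, ATP6V1G2, ATP6V1G3, ATG9A, ATG13, ATG101, CTSA and CTSV) were picked once their values were known.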

Additional observations from a re-analysis of the deposited data

How the results depend on the processing

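Under 17 other settings the count of members past the threshold stayed at 0 between the low glucose media. In low glucose against control it was 0, or 1 with DESeq2 and with a fit of only the 6 libraries, and 0 to 1 when single libraries were left out. With BHB it was 0, or 1 with DESeq2, limma-voom, a mean count of at least 50, no filter and the replicate block, and 0 to 1 when single libraries were left out. For both media together it was 1, 0 to 2 when single libraries were left out, and 0 without replicate 1 of every medium. The gene was CTSK each time, joined once by GABARAPL1 (-0.46, edgeR adjusted p = 0.0484, without BHB replicate 3). The cause was not tested. Over all genes, low glucose gave 334 calls, 557 with DESeq2 and 196 to 391 without single libraries, BHB gave 228, 418 and 91 to 257, both together 473 and 294 to 476 without single libraries, and DESeq2 called 2 genes between the low glucose media. The replicate block changed no other member's call, and against control not every library correlated best with its own number. No named member with a call turned in sign, and uncalled values that changed sign were at most 0.24 in size. Medians of members ran from 0.01 to 0.07 in low glucose and from -0.01 to 0.05 with BHB. Depth limits CTSS, LAMP3 and ATP6V1G2, whose intervals span over 4-fold, and the members put aside.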
